A study of Mus musculus with 6 samples.

Results

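The miR-30 family was followed in extracellular vesicles of primary mouse hepatocytes, which the labels call exosomes. Its members were taken by name from the deposited table: 9 of 1976 listed mature miRNAs, namely miR-30a-5p, miR-30b-5p, miR-30c-5p, miR-30d-5p and miR-30e-5p, the 3p strands miR-30a-3p, miR-30e-3p and miR-30c-2-3p, and miR-30f. All 9 passed the filter on low values that left 181 miRNAs for testing. The study compared 3 small RNA libraries from vesicles of hepatocytes given 600 µM palmitic acid, the saturated fatty acid of palm oil with which lipid overload is modelled in culture, with 3 libraries from hepatocytes given 0 µM. All cells were wild type (C57BL/6J), and the series title refers to a fatty liver, a dysfunctional endothelium and miR-30b-5p. Neither the duration of treatment, the age and number of mice nor the isolation of vesicles is given in the sources used here. No label says whether replicates are separate animals or cultures. The p-values therefore describe the spread among these 6 libraries alone, and that spread may be technical.

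A miRNA hairpin is cut into a 5p and a 3p strand, and usually one of them, the guide, is kept by an Argonaute protein while the other, the passenger, is lost. The guide finds messenger RNAs mainly through its seed, bases 2 to 8 counted from the 5′ end. The 5p strands of the miR-30 family share a seed and so share many predicted targets. They are abundant in liver, and single members have been linked to hepatobiliary development, to the autophagy gene BECN1 (miR-30a, in human cells), to the lipid transfer protein MTTP (miR-30c) and to the Notch ligand DLL4 in endothelial cells.

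The family is encoded in 3 places of the GRCm38 genome. Mir30a (chr1:23272269-23272339) and Mir30c-2 (chr1:23291701-23291784) lie on the plus strand of chromosome 1 with 19361 bases between them, and Mir30c-2 lies in an exon of the lincRNA gene Gm27028. Mir30d (chr15:68341208-68341289) and Mir30b (chr15:68337415-68337510) lie on the minus strand of chromosome 15 with 3697 bases between them, Mir30d in an exon of the lincRNA gene Gm20732. Mir30e (chr4:120772606-120772697) and Mir30c-1 (chr4:120769534-120769622) lie on the minus strand of chromosome 4 in an intron of Nfyc, a subunit of the transcription factor NF-Y, with 2983 bases between them. miR-30c-5p is made from Mir30c-1 and Mir30c-2 alike. Mir30f is annotated at the same bases as Mir30e, on the opposite strand.

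Mature sequences matched by name in RefSeq (GRCm38.p6) for 7 of the 9 members and are shown with the seed in capitals, since the contrasts that follow run between near-identical strands.
mmu-miR-30a-5p: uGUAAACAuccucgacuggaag
mmu-miR-30e-5p: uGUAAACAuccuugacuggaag
mmu-miR-30c-5p: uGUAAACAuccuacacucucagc
mmu-miR-30f: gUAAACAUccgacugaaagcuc
mmu-miR-30a-3p: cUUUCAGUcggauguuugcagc
mmu-miR-30e-3p: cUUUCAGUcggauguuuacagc
mmu-miR-30c-2-3p: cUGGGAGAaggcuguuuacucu

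miR-30a-5p, miR-30e-5p and miR-30c-5p share the seed GUAAACA. Counted from the 5′ end, miR-30a-5p and miR-30e-5p differ at 1 base of 22 (C13U), and their 3p strands also differ at 1 base of 22 (G18A). miR-30c-5p differs from miR-30a-5p at 5 bases of the 22 compared (C13A, G14C, G18C, G19U and A20C). miR-30f starts 1 base later: its bases 1 to 10 equal bases 2 to 11 of miR-30a-5p, which moves its seed to UAAACAU. Of the other listed miRNAs with a sequence in RefSeq, miR-384-5p has the seed GUAAACA. It had 0 reads in every library, which at a floor of 3 reads allows a share of up to 0.00315% in the shallowest (control replicate 1).

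In the hairpins of miR-30a (71 bases) and miR-30e (92 bases) the capitals mark the 5p strand, on the left, and the 3p strand, on the right, whose balance is compared further on.
Mir30a: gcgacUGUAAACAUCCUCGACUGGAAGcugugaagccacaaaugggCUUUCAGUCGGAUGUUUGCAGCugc
Mir30e: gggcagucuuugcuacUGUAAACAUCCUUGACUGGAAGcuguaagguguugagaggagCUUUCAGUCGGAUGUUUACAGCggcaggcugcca

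The deposited values are log2(adjusted count + 1), adjusted to a common size by a fitted factor per library, and read numbers were recovered from them. The factors did not follow the totals of reads. They were 2.05, 2.86 and 1.69 in palmitic acid replicates 1, 2 and 3 and 0.322, 0.369 and 0.464 in control replicates 1, 2 and 3. The deposited scale thus differs from reads scaled to the library total. Recovered totals were 799126, 761783 and 613487 reads in palmitic acid replicates 1, 2 and 3 and 95242, 657582 and 252330 reads in control replicates 1, 2 and 3. The liver miRNA miR-122-5p with miR-122b-3p, whose hairpin overlaps it, took 11.7% to 15.3% of palmitic acid reads and 69.2% to 87.7% of control reads, so fewer control reads were left for other miRNAs. All 4 hepatocyte markers examined were found in both groups. Their summed levels in RPM (reads scaled to a common library total) were 302778 to 462452 with palmitic acid and 637345 to 825359 in controls. Singly, these 4 did not move together on the deposited scale. The log2 change was -3.56 for miR-122-5p (limma adjusted p = 0.0141) and 1.94 for miR-192-5p (limma adjusted p = 0.0259). miR-148a-3p (0.83) and miR-194-5p (-0.23) did not pass the test. Epithelial markers (8 examined) summed to 5638 to 15161 RPM with palmitic acid and 385 to 1145 in controls, and 5 immune markers to 52.2 to 207 with palmitic acid and 1.52 to 252 in controls. For 5 stellate cell and fibroblast markers the sums were 491 to 638 with palmitic acid and 157 to 2163 in controls, and for 2 endothelial markers 3743 to 4957 with palmitic acid and 865 to 3420 in controls. Muscle markers (4) summed to 26.3 to 50.1 with palmitic acid and 95.8 to 2362 in controls, and erythroid markers (3) to 24.5 to 160 with palmitic acid and 38.0 to 5701 in controls. Neuronal markers (3) summed to 2.63 to 12.5 with palmitic acid and 0 to 2751 in controls. The muscle markers miR-133a-3p and miR-208a-3p and the erythroid marker miR-144-3p had no read in any library. The part of these other cell types in the miR-30 values was not tested, and fewer vesicles of a kind and less RNA per vesicle cannot be told apart.

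Together, the miR-30 members held a larger share of the vesicle reads after palmitic acid, and most of that share was miR-30a-5p. That strand alone held 6.51%, 7.32% and 3.27% of reads with palmitic acid and 0.237%, 0.0707% and 0.101% in controls. The 9 members held 7.56% (95% Clopper-Pearson interval 7.50 to 7.62), 8.62% (8.55 to 8.68) and 4.41% (4.36 to 4.46) of the reads in palmitic acid replicates 1, 2 and 3. In control replicates 1, 2 and 3 they held 0.652% (0.602 to 0.705), 0.247% (0.235 to 0.259) and 0.492% (0.465 to 0.520). Every palmitic acid library lay above every control library, with means of 6.86% ± 2.19 with palmitic acid and 0.464% ± 0.204 in controls (SD, n = 3 each), a 14.8-fold ratio of the means. By an exact permutation test (two-sided) p = 0.1, below which a design of 3 against 3 cannot go. The intervals cover the counting error of reads within a library only, and not the spread between libraries. They are too narrow where PCR copies of 1 molecule count as separate reads.

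The ratio was smaller with miR-122 set aside. Of reads other than miR-122-5p and miR-122b-3p, the family held 8.92%, 9.76% and 5.06% with palmitic acid, against 2.12%, 2.01% and 2.36% in controls. These groups did not overlap either, and the ratio of the means was 3.66-fold (exact permutation p = 0.1). On this scale miR-30a-5p stood at 76894, 82918 and 37499 RPM with palmitic acid and 7700, 5757 and 4847 in controls. miR-30b-5p and miR-30c-5p were also higher in every palmitic acid library, miR-30e-5p overlapped and miR-30d-5p was lower. The 3p strands and miR-30f together were lower, at 0.120%, 0.123% and 0.162% with palmitic acid and 0.276%, 0.515% and 0.679% in controls. Apart from miR-30a-5p, the members thus moved in both directions on this scale. Their summed share was not compared, so the larger family share says nothing of them as a set.

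The members that rose were 5p strands. Of the 5 members named as 5p strands, 4 rose: miR-30b-5p, miR-30a-5p, miR-30c-5p and miR-30e-5p. None of the 3 members named as 3p strands, nor miR-30f, passed the test in either direction. Among all tested miRNAs, 40 of 86 5p strands rose (median log2 change 2.32) and 24 of 67 3p strands (median 1.13). In all, 4 of 9 members rose and 0 fell at a limma adjusted p below 0.05, where 42% of the 181 tested miRNAs rose and 14.4% fell (56.4% in either direction). The share of members that rose was thus close to the background. The same 4 members had an unadjusted limma p below 0.05. The median log2 change of the members was 0.90 and that of all tested miRNAs 1.94. That median was 2.99 as RPM of all reads and 1.18 as RPM of reads other than miR-122, so it moved with the scale. With each library centred on its median miRNA, or scaled to its upper quartile, 4 members were higher and 2 (miR-30e-3p and miR-30f) lower. Relative to the median change of all tested miRNAs, 2 members were higher (miR-30a-5p and miR-30b-5p) and 4 lower (miR-30d-5p, miR-30a-3p, miR-30e-3p and miR-30f).

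Among the members, miR-30a-5p had the most reads with palmitic acid. It had 52049, 55758 and 20041 reads in palmitic acid replicates 1, 2 and 3 and 226, 465 and 255 reads in control replicates 1, 2 and 3. Its deposited values were 14.63, 14.25 and 13.54 with palmitic acid and 9.46, 10.30 and 9.11 in controls, so the groups did not overlap. The log2 change was 4.52 (SE 0.47, 95% interval 3.43 to 5.61, limma adjusted p = 9.77e-05). By mean RPM it ranked 6 of all listed miRNAs with palmitic acid and 25 in controls.

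miR-30b-5p, the miRNA of the series title, had a log2 change within 1 SE of that of miR-30a-5p but far fewer reads. It had 1157, 1447 and 794 reads with palmitic acid and 5, 12 and 6 reads in controls. The exact Poisson intervals of the control reads were 1.62 to 11.7, 6.20 to 21.0 and 2.20 to 13.1, so the control level rested on few reads. The deposited values were 9.14, 8.98 and 8.88 with palmitic acid and 4.09, 5.09 and 3.83 in controls, and the log2 change was 4.67 (SE 0.58, limma adjusted p = 2.9e-04). It ranked 35 by mean RPM with palmitic acid and 149 in controls, and 27 of 181 by log2 change.

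miR-30c-5p, made from 2 hairpins, had 3394, 3717 and 2412 reads with palmitic acid and 41, 133 and 66 reads in controls. Deposited values were 10.70, 10.34 and 10.48 with palmitic acid and 7.01, 8.50 and 7.17 in controls, without overlap. It rose by 2.95 on the log2 scale (SE 0.47, limma adjusted p = 0.00114). Set against the median tested miRNA its difference was 1.01 and did not pass (limma adjusted p = 0.105).

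miR-30e-5p had 902, 738 and 359 reads with palmitic acid and 32, 15 and 17 reads in controls. It stood at deposited values of 8.79, 8.02 and 7.74 with palmitic acid and 6.66, 5.40 and 5.25 in controls, so the groups did not overlap. It rose by 2.42 (SE 0.61, limma adjusted p = 0.00941), but did not pass without palmitic acid replicate 1 (2.11, adjusted p = 0.0682). As RPM of reads other than miR-122 its difference was 1.30 (limma adjusted p = 0.181). Since it differs from miR-30a-5p at 1 base, and how reads matching several miRNAs were counted is not given in the sources used here, values of the pair are uncertain.

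miR-30d-5p, the neighbour of miR-30b, was the 5p member that did not pass the test. Its deposited values were 10.001, 10.10 and 10.59 with palmitic acid and 9.52, 10.62 and 10.19 in controls, and the groups overlapped. The log2 difference was 0.12 (SE 0.40, 95% interval -0.81 to 1.05, limma adjusted p = 0.811). Its direction depended on the scale. As RPM of all reads it stood at 2623, 4134 and 4233 with palmitic acid and 2478, 884 and 2140 in controls. As RPM of reads other than miR-122-5p and miR-122b-3p it stood at 3096, 4683 and 4859 with palmitic acid and 8041, 7194 and 10265 in controls. By the first scale every palmitic acid library lay above every control library, although the log2 difference did not pass (limma adjusted p = 0.128). By the second every one lay below, and miR-30d-5p fell (log2 difference -1.02, limma adjusted p = 0.03).

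**Figure D1:**
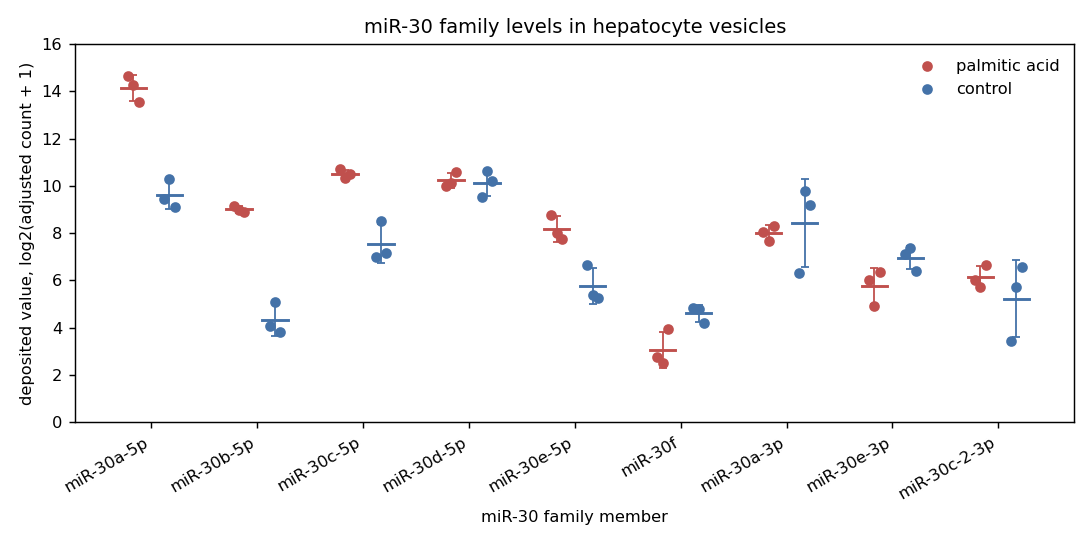
Deposited value, log2(adjusted count + 1), of each miR-30 family member on the y axis, with 3 palmitic acid libraries (red, left) and 3 control libraries (blue, right) per member on the x axis. Points are libraries, horizontal bars are means and error bars are SDs (n = 3). miR-30a-5p, miR-30b-5p, miR-30c-5p and miR-30e-5p lie higher in every palmitic acid library than in any control library, and miR-30d-5p overlaps.

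Of the 3p strands, miR-30a-3p had 542, 581 and 534 reads with palmitic acid and 25, 326 and 267 reads in controls. Its deposited values were 8.05, 7.67 and 8.31 with palmitic acid and 6.31, 9.79 and 9.17 in controls. Control replicate 1, the shallowest library, stood below all others and controls 2 and 3 above them. The log2 difference was -0.41 (SE 0.85, limma adjusted p = 0.701), and -1.47 without control replicate 1 (adjusted p = 0.0176). As RPM of all reads its sign turned (0.57, adjusted p = 0.535).

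miR-30e-3p had 130, 84 and 138 reads with palmitic acid and 44, 61 and 39 reads in controls. The deposited values were 6.01, 4.92 and 6.37 with palmitic acid and 7.10, 7.38 and 6.41 in controls, lower in every palmitic acid library on this scale. The log2 difference of -1.20 (SE 0.67, limma adjusted p = 0.155) did not pass, and was -0.77 without palmitic acid replicate 2. As RPM of all reads the groups overlapped (-0.24, limma adjusted p = 0.857), while as RPM of reads other than miR-122 it fell by 2.35 (limma adjusted p = 0.0201).

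miR-30f, the annotated strand opposite miR-30e, had the fewest reads of the members with palmitic acid. It had 12, 14 and 24 reads there and 9, 10 and 8 reads in controls. Its deposited values of 2.75, 2.52 and 3.93 with palmitic acid lay below the 4.83, 4.79 and 4.19 of controls. The log2 difference was -1.54 (SE 0.69, limma adjusted p = 0.0882). With a library left out it passed only without control replicate 3 (-1.74, adjusted p = 0.0366). Without palmitic acid replicate 1, 2 or 3 the limma adjusted p was 0.45, 0.473 and 0.243. As RPM of all reads the groups overlapped (-0.67, limma adjusted p = 0.609).

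miR-30c-2-3p had 130, 150 and 169 reads with palmitic acid and 3, 19 and 43 reads in controls. In deposited values it stood at 6.01, 5.74 and 6.66 with palmitic acid and 3.43, 5.72 and 6.55 in controls. The groups overlapped and the log2 difference was 0.90 (SE 0.97, limma adjusted p = 0.438), with -0.18 as RPM of reads other than miR-122. It was 0.0013 without control replicate 1 and 1.56 without control replicate 3. Over the 9 members, 4 were higher without overlap, 2 lower without overlap and 3 overlapped, where 48.6% and 19.3% of all tested miRNAs were higher and lower without overlap (68% in either direction).

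**Figure D2:**
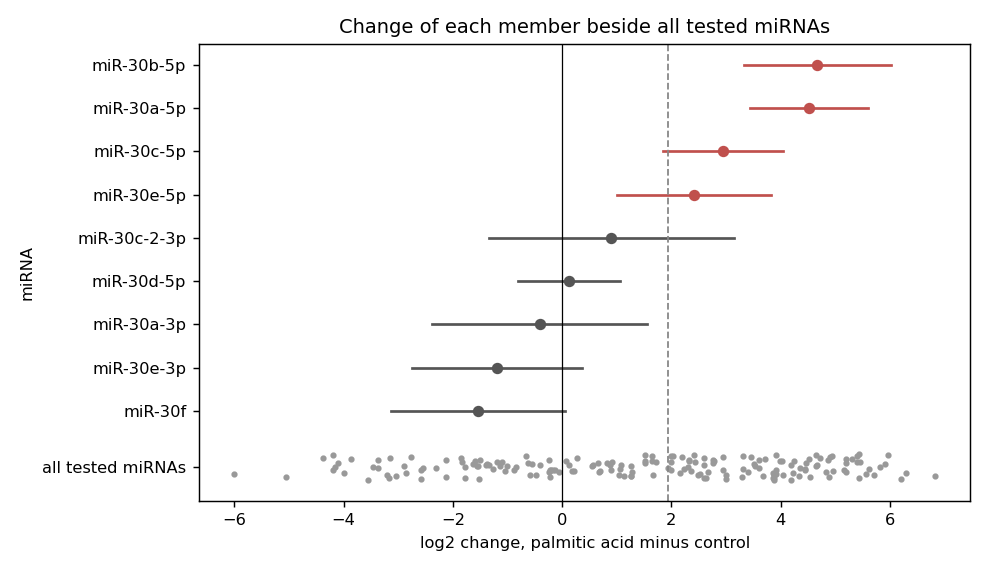
Log2 change, palmitic acid minus control, on the x axis for the 9 miR-30 members (rows), with 95% intervals from limma. Red marks adjusted p below 0.05, grey dots in the bottom row are all 181 tested miRNAs, and the dashed line is their median of 1.94. The 4 red members are 5p strands. On this scale miR-30d-5p, miR-30a-3p, miR-30e-3p and miR-30f lie near or below 0 and miR-30c-2-3p at 0.90, each with an interval that includes 0.

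The order of the members differed between the groups. The mature strands printed above are 22 or 23 bases long, so their levels were compared without a length scale. Whether strands of different sequence were read equally well was not tested, so the order is one of values and not of molecules. With palmitic acid, miR-30a-5p led at a deposited 14.14 ± 0.56 (SD, n = 3). It was followed by miR-30c-5p at 10.51 ± 0.18 and miR-30d-5p at 10.23 ± 0.32, whose ranges overlapped. miR-30b-5p at 9.0 ± 0.13 came next, then miR-30e-5p at 8.18 ± 0.54 and miR-30a-3p at 8.01 ± 0.32, again overlapping. miR-30c-2-3p (6.14 ± 0.48) and miR-30e-3p (5.77 ± 0.76) overlapped too, and miR-30f was lowest at 3.07 ± 0.75.

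In controls miR-30d-5p led at 10.11 ± 0.56, and was above miR-30a-5p (9.62 ± 0.61) in 3 of 3 libraries although their ranges overlapped. miR-30a-3p came next at 8.42 ± 1.86, followed by miR-30c-5p at 7.56 ± 0.82, miR-30e-3p at 6.96 ± 0.50 and miR-30e-5p at 5.77 ± 0.77. miR-30c-2-3p stood at 5.23 ± 1.61, miR-30f at 4.60 ± 0.36 and miR-30b-5p lowest at 4.33 ± 0.66. Each neighbouring pair of this order overlapped in range.

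Shares within the family do not depend on how many reads other miRNAs took. miR-30a-5p held 86.2%, 84.9% and 74.0% of the family's reads with palmitic acid and 36.4%, 28.7% and 20.5% in controls. miR-30d-5p held 3.47%, 4.80% and 9.59% with palmitic acid and 38.0%, 35.8% and 43.5% in controls. The leading member thus differed, with miR-30a-5p first in every palmitic acid library and miR-30d-5p first in every control library. miR-30b-5p held 1.92%, 2.20% and 2.93% with palmitic acid and 0.805%, 0.740% and 0.483% in controls.

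miR-30a-3p held 0.897%, 0.885% and 1.97% of family reads with palmitic acid and 4.03%, 20.1% and 21.5% in controls. miR-30e-3p held 0.215%, 0.128% and 0.510% with palmitic acid and 7.09%, 3.76% and 3.14% in controls. All 5 named 5p strands together held 98.7%, 98.7% and 96.8% with palmitic acid and 87.0%, 74.4% and 71.2% in controls. The share of miR-30c-5p barely differed, at 6.73% ± 1.89 with palmitic acid and 6.71% ± 1.44 in controls (SD, n = 3 each, exact permutation p = 1).

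Of the 9 shares, 6 did not overlap between groups: those of miR-30a-5p and miR-30b-5p were higher with palmitic acid, and those of miR-30d-5p, miR-30a-3p, miR-30e-3p and miR-30f lower. Each of the 6 had an exact permutation p = 0.1, the smallest possible, and 0.15 when adjusted over the 9 shares. As parts of 1 whole, the shares are not independent, and a larger share of miR-30a-5p lowers those of the others. On the deposited scale, 68% of all tested miRNAs did not overlap between groups (48.6% higher and 19.3% lower). The count of 6 of 9 is close to that, although shares are another measure.

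**Figure D3:**
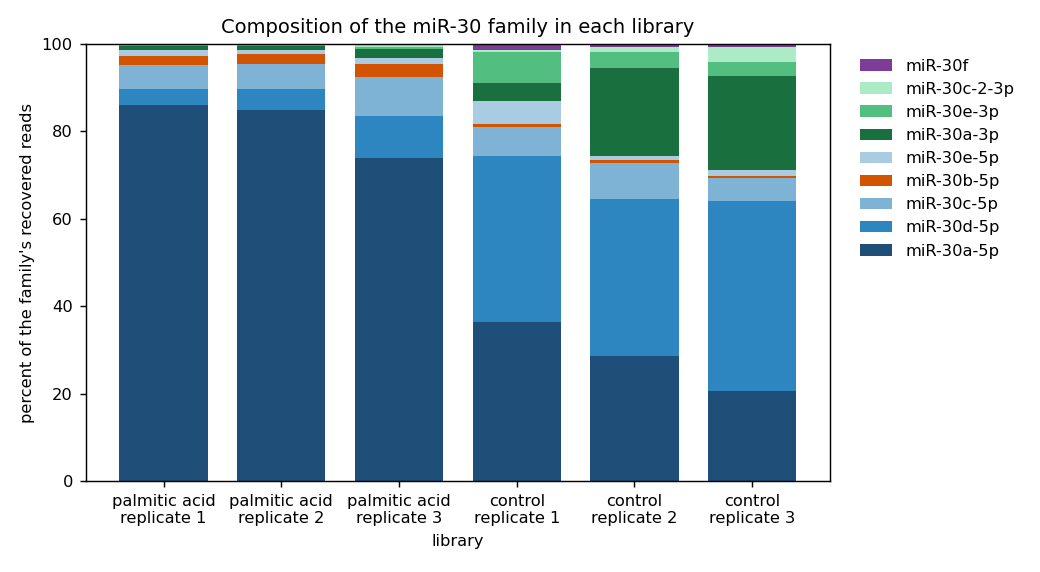
Percent of the miR-30 family's recovered reads (y axis) held by each member in 3 palmitic acid libraries and 3 control libraries (x axis). Blue tones and orange are 5p strands, green tones are 3p strands and purple is miR-30f. miR-30a-5p fills 74.0% to 86.2% of the palmitic acid bars and 20.5% to 36.4% of the control bars.

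The neighbours miR-30b and miR-30d differed in how they changed. Of the reads of miR-30b-5p and miR-30d-5p together, miR-30b-5p held 35.6%, 31.5% and 23.4% with palmitic acid and 2.07%, 2.02% and 1.1% in controls. On the deposited scale the log2 ratio of miR-30b-5p to miR-30d-5p was -0.86, -1.12 and -1.71 with palmitic acid and -5.43, -5.54 and -6.36 in controls. miR-30d-5p thus had more reads than its neighbour in all 6 libraries. The ratio was higher with palmitic acid by 4.55, without overlap (exact permutation p = 0.1), and by 4.02 to 4.79 over the alternatives. It does not depend on a common scaling of a library.

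Among the neighbour pairs compared, a difference of this size was uncommon but not unique. The tested miRNAs with an annotated position (163) gave 35 pairs of hairpins on the same strand with starts at most 10000 bases apart. The 5p and 3p strands of a hairpin did not both enter. Pairs of the strands left out, such as miR-106b-5p and miR-192-3p, were not compared. In the 33 pairs without a miR-30 member, the absolute difference in log2 change had a median of 1.51 and ran from 0.05 to 6.28. In 4 of them it was larger than for miR-30b-5p and miR-30d-5p, 3 of them with miR-92a-3p of the miR-17 to miR-92 cluster and the fourth being miR-25-3p with miR-93-5p, named after their values were seen. The other miR-30 pair within that distance, miR-30c-5p and miR-30e-5p, differed by 0.53.

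miR-30a-5p and miR-30b-5p come from different chromosomes. Their read ratio was 45.0, 38.5 and 25.2 with palmitic acid and 45.2, 38.8 and 42.5 in controls, so the groups overlapped. miR-30a-5p to miR-30c-5p, by contrast, stood at 15.3, 15 and 8.31 with palmitic acid and 5.51, 3.50 and 3.86 in controls. The pair of miR-30a-5p with miR-30b-5p was picked out after its values were seen, and the control ratios rest on 5 to 12 reads of miR-30b-5p.

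The ratio of the 5p to the 3p strand was higher with palmitic acid in mir-30a and mir-30e, the family hairpins with a mean adjusted count of at least 10 in each arm. For mir-30a there were 96.0, 96.0 and 37.5 5p reads per 3p read with palmitic acid and 9.04, 1.43 and 0.955 in controls. In control replicate 3 the 3p strand thus had slightly more reads than the 5p strand. On the deposited scale the log2 ratio was higher with palmitic acid by 4.93 (SE 1.36, limma over 24 hairpins, adjusted p = 0.00878). This call was lost without palmitic acid replicate 1 (4.70, adjusted p = 0.0792) or 2 (4.70, adjusted p = 0.0723).

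For mir-30e the 3p strand led in controls and the 5p strand with palmitic acid. The 5p reads per 3p read were 6.94, 8.79 and 2.6 with palmitic acid and 0.727, 0.246 and 0.436 in controls. The lead with palmitic acid rests on 902, 738 and 359 reads of miR-30e-5p, beside 52049, 55758 and 20041 of miR-30a-5p, which differs at 1 base. How reads matching both were counted is not given in the sources used here, so this ratio is uncertain. The log2 ratio was higher by 3.61 (SE 1.29, limma adjusted p = 0.0314). The call was lost without palmitic acid replicate 1 (adjusted p = 0.121), 2 (0.164) or 3 (0.0780). Of the 24 hairpins with both strands measured, 25% had a higher and 12.5% a lower 5p to 3p ratio with palmitic acid (37.5% in either direction), and the median change was 1.84. In 9 of the 24 every palmitic acid library lay above every control library, mir-30a and mir-30e among them.

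The remaining hairpins gave fewer reads. miR-30c-5p had 26.1, 24.8 and 14.3 reads per read of miR-30c-2-3p with palmitic acid and 13.7, 7 and 1.53 in controls, although Mir30c-1 also gives miR-30c-5p. The log2 ratio was higher by 2.05, without overlap (exact permutation p = 0.1), and by 1.19 without control replicate 3. The 3p strand of Mir30c-1, miR-30c-1-3p, had 7, 10 and 4 reads with palmitic acid and 0 reads in each control, where the floor of 3 reads is a share of 0.00315% in control replicate 1. miR-30b-3p had 19, 20 and 16 reads with palmitic acid and 0, 8 and 0 in controls, and miR-30d-3p had 5, 11 and 4 with palmitic acid and 0, 1 and 1 in controls. None of these last 3 strands passed the filter. On the deposited scale the log2 ratio of miR-30b-5p to miR-30b-3p was 5.79, 6.003 and 5.49 with palmitic acid and 3.70, 0.63 and 3.59 in controls, 2 of which rest on 0 reads of miR-30b-3p. With a mean of at least 5 in each arm (42 hairpins) mir-30b entered the fit, with a difference of 3.12 (limma adjusted p = 0.0447). The log2 ratio of miR-30d-5p to miR-30d-3p was 8.24, 7.82 and 8.86 with palmitic acid and 9.23, 8.68 and 8.47 in controls. That difference of -0.49 lay within overlapping groups (exact permutation p = 0.3).

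miR-30f and miR-30e-3p cover 19 of the same bases on opposite strands, and all 19 are complementary. miR-30e-3p had 10.8, 6 and 5.75 reads per read of miR-30f with palmitic acid and 4.89, 6.10 and 4.88 in controls, so the groups overlapped. Against miR-30e-5p of the same hairpin, miR-30f did not keep such a ratio, with 75.2, 52.7 and 14.96 reads of miR-30e-5p per read of miR-30f with palmitic acid and 3.56, 1.5 and 2.12 in controls. Whether the strand of a read was used in counting is not given in the sources used here, and miR-30f values are uncertain.

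**Figure D4:**
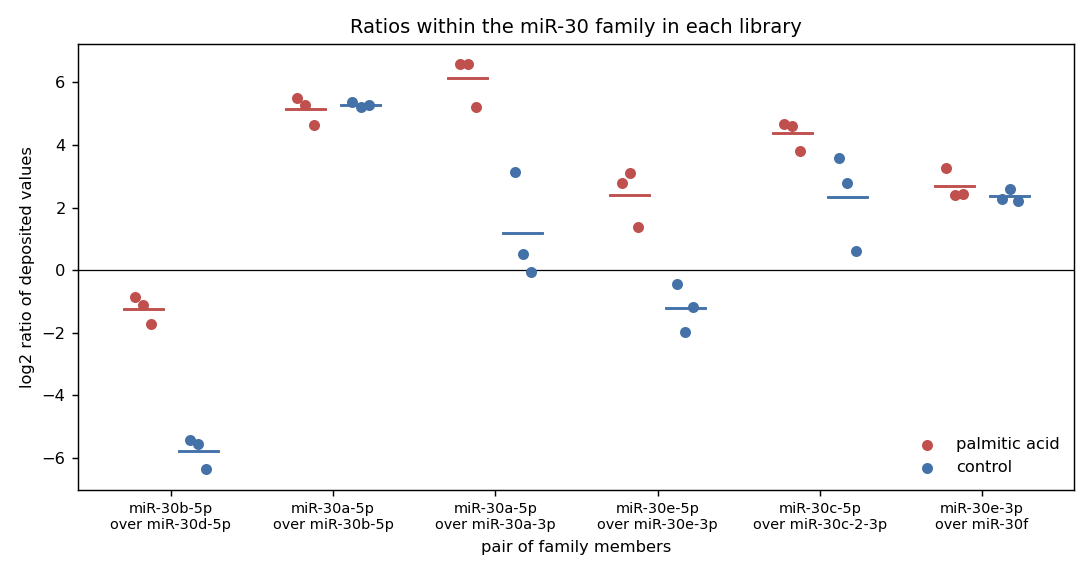
Log2 ratio of deposited values (y axis) for 6 pairs of miR-30 family members (x axis) in palmitic acid libraries (red, left) and control libraries (blue, right). Points are libraries and bars are means of 3. The ratios of miR-30b-5p to miR-30d-5p and of 5p to 3p strands are higher in every palmitic acid library, and those of miR-30a-5p to miR-30b-5p and of miR-30e-3p to miR-30f overlap between the groups.

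Outside the family, the pattern most like that of miR-30b-5p was that of let-7j, with a root mean square difference of 0.20 in log2 values centred over the 6 libraries. miR-106b-5p (0.34) and miR-1839-5p (0.35) followed among 172 other tested miRNAs, and within the family miR-30a-5p stood at 0.26. The controls together gave 1 read of miR-106b-5p, so its control values lie near the floor. For miR-30d-5p the nearest were let-7a-5p (0.21), miR-92a-3p (0.24) and the endothelial marker miR-126a-3p (0.26). The log2 changes of these 3 were -0.23, 0.55 and 0.07. The nearest family members to miR-30d-5p were miR-30c-2-3p and miR-30a-3p, both at 0.82, and miR-30b-5p lay farthest within the family, at 2.31.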

How the data were processed

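RNA was taken up in Trizol and libraries were prepared by NEBNext Multiplex chemistry for small RNA, per the labels' protocols. Bowtie2, bedtools, GRCm38 and mm10 are named per the submitters' processing notes. Their roles and versions, the miRNA annotation and the counting of reads were not given in the sources used here. Altogether 1976 mature miRNAs are listed for 6 libraries. Although named as raw counts, the deposited values are fractional and on a log2 scale. Each equals log2(adjusted count + 1), judged from the values, where the count was moved to a common size by a negative binomial quantile adjustment (fitted dispersion 1.39). A step of this kind is not recorded in the labels. Inverting the adjustment gave whole reads for 100% of 4387 testable values, within 0.0015 on the log2 scale with 1 free mean per miRNA. Testable values are those that 1 more read moves by at least 0.02, so high read numbers lie outside this check. Of 1058 miRNAs with a deposited value above 0, 108 had no read recovered in any library. Fitted library factors averaged 5.64-fold higher with palmitic acid, so 1 read weighs more in controls. These factors did not follow the totals of reads.

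limma 3.58.1 (R 4.3.3, mean-variance trend, group term, two-sided, Benjamini-Hochberg adjusted p below 0.05) was run on deposited log2 values of 181 miRNAs whose adjusted count reached 10 in 3 or more libraries, and on 5p minus 3p values of 24 hairpins with a mean of at least 10 in each arm. The test fits log2 values and not counts. Shares and ratios were compared by exact two-sided permutation tests over libraries. The 1 added before taking log2 makes fold changes of low miRNAs smaller. The scale also matters for them: miR-30f changed by -1.54 on the deposited scale and by -0.67 as RPM of all reads. Scripts were tested on simulated data. Alternatives were filters, pseudocounts, scales, a replicate block and leaving out each library. All 9 members are named, with their hairpins' other arms, listed miRNAs with the seed of the 5p members and the 3 nearest patterns to miR-30b-5p and miR-30d-5p. Members, lists and rules were chosen with earlier results of these data known.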

Additional observations from a re-analysis of the deposited data

How the results depend on the processing

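The 4 members that rose became 2 relative to the median change and 3 or 4 otherwise, with 3 to 4 when a library was left out. No member fell in the main fit on the deposited scale. A pseudocount of 10, or a fit without the mean-variance trend, gave 1 fall. Centring, upper-quartile scale or RPM without miR-122 gave 2, and the change relative to the median gave 4. Leaving out a library gave 0 to 1. Over all 181 miRNAs the 76 rises and 26 falls became 48 and 59 relative to the median change, 89 and 8 with RPM of all reads, 57 and 41 without miR-122, 65 and 40 with centring and 69 and 37 with upper-quartile scale. Without a filter they were 88 and 60 of 1058, and without palmitic acid replicate 1, 2 or 3 they were 28 and 19, 32 and 18, and 33 and 19. miR-30a-5p and miR-30b-5p passed under all 18 alternatives, with log2 changes of 2.58 to 5.49 and 2.73 to 5.70 and adjusted p up to 0.00648 and 0.00469. miR-30c-5p passed in 17 of 18 (adjusted p 9.32e-05 to 0.105). miR-30e-5p was lost in 3 of 18 (0.00378 to 0.534).

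The difference of miR-30d-5p turned to -0.67 with centring (adjusted p = 0.28), -0.42 with upper-quartile scale (0.392), -1.02 without miR-122 (0.03, past the threshold), -1.82 relative to the median change (0.00568, past it), -0.06 without palmitic acid replicate 3 and -0.17 without control replicate 1 (-0.17 to 0.38 with libraries left out). That of miR-30a-3p turned to 0.57 with RPM of all reads and 0.27 without control replicate 2 (-1.47 to 0.27 with libraries left out; adjusted p between 0.0176 and 0.971). That of miR-30c-2-3p turned to -0.18 without miR-122 and -1.04 relative to the median change. The adjusted p of miR-30f ran from 0.00318 to 0.609 and that of miR-30e-3p from 0.00477 to 0.857. The share of miR-30c-5p in the family turned to -0.0336 points without miR-30f, -1.07 without palmitic acid replicate 3, -0.03 without control replicate 1 and -0.67 without control replicate 3 (-1.07 to 0.77), and that of miR-30e-5p to 0.17 without control replicate 1 (-1.95 to 0.17). The cause of these turns was not tested.

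The arm ratio change of mir-30a ran from 4.30 to 5.90 and that of mir-30e from 3.22 to 4.14 with libraries left out. With a replicate block that of mir-30e was 3.61 but not past the threshold (adjusted p = 0.0942). Deviations of same-numbered libraries correlated at 0.21, 0.15 and 0.04, so the numbers were not taken as pairs; the block left 4 members higher and 0 lower. The family share and the miR-30b to miR-30d ratio kept their direction in every alternative. Depth limits the control values of miR-30b-5p, miR-30e-5p, miR-30f and miR-30c-2-3p, which rest on 3 to 43 reads.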
